A study of Mus musculus with 10 samples.

Results

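The 43 genes described here encode the machinery by which the endoplasmic reticulum (ER) takes in, glycosylates, folds and inspects proteins. They were chosen by gene name from the 54532 genes of the deposited expression table, and all 43 are in it. Earlier results of these data were known at that choice, so comparisons with all tested genes may not be independent of it. The 10 RNA-seq libraries are of primary macrophages from the mouse peritoneal cavity, phagocytes that live free in the abdominal fluid. Aged mice labelled Trem1-/- gave 3 of them (replicates 1, 2 and 3). Another 3 were of aged wild-type mice, numbered 3, 4 and 6, and 4 were of young wild-type mice, lettered A, B, C and E. Trem1 encodes a surface receptor of myeloid cells that strengthens inflammatory signalling, and the series asks how its deletion bears on gene expression in aged macrophages. The labels give no age in months, sex, strain background, treatment, sorting step or way in which the deletion was made, and there is no young Trem1-/- group. Whether each library is a separate mouse is not stated, so the spread behind the p-values may be technical.

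Proteins bound for the cell surface, the lysosome or secretion enter the ER through the Sec61 channel, where signal peptidase cuts off the signal peptide and oligosaccharyltransferase attaches a glycan to asparagines. Chaperones such as BiP, the lectins calnexin and calreticulin, and protein disulfide isomerases then fold the chain, and proteins that fail to fold are returned to the cytosol for degradation. When unfolded proteins build up, the sensors IRE1, ATF6 and PERK start the unfolded protein response, which raises transcription of many of these same genes. Macrophages carry a large load of such cargo, since scavenger and complement receptors, lysosomal hydrolases and secreted complement all pass through the ER.

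Values are normalized read counts per library, listed in the order of replicates given above. Log2 fold changes are on the scale of log2(normalized count + 1) and are given ± their standard error (SE). Fold changes given as a pair are first for aged against young wild type and then for the libraries labelled Trem1-/- against aged wild type. A gene was called when its limma p-value, adjusted by the Benjamini-Hochberg method over 11506 tested genes, was under 0.05. All 43 genes passed the filter on low values, and the lowest single value behind them was 48 reads, for Spcs1. Depth ran from 2663744 to 5603498 reads per library. Trem1 itself was read in every library, at 23.5, 106 and 13.8 normalized counts in the libraries labelled Trem1-/-, 64.0, 15.3 and 27.0 in aged wild type and 14.8, 8.005, 12.0 and 24.4 in young wild type. The ratio of the Trem1-/- mean to the aged wild-type mean was 1.35 (exact two-sided permutation p = 0.9, the smallest possible being 0.1), and 0.526 without replicate 2. Why Trem1 was read in the libraries labelled Trem1-/- was not tested, and the genotype is given as labelled.

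Aged wild-type libraries stood apart from the others in sums of macrophage, B cell, plasma cell, T and NK cell, and mesothelial and fibroblast markers. In sums of erythroid, dividing cell, mast cell and neutrophil markers they overlapped with another group. The summed level of 10 resident macrophage markers was 72218 to 92126 normalized counts in the libraries labelled Trem1-/-, 25298 to 40766 in aged wild type and 82262 to 90546 in young wild type, with none at 0. B cell markers (10 genes) summed to 2690 to 5766, 6383 to 9893 and 1220.3 to 2649 in the same order of groups, and plasma cell markers (9 genes) to 884 to 1233, 1361 to 2008 and 443 to 753. T and NK cell markers (10 genes) summed to 46.0 to 86.5, 229 to 380.1 and 33.7 to 72.3, and mesothelial and fibroblast markers (11 genes) to 22.5 to 522, 656 to 717 and 12.3 to 524. Erythroid markers (6 genes) summed to 17.2 to 57.7, 473 to 23701 and 9.30 to 751, the highest being aged wild-type replicate 4. Markers of dividing cells (7 genes) summed to 641 to 964, 328 to 775 and 1442 to 3951. Mast cell markers (7 genes) summed to 413 to 1942, 918 to 2198 and 241 to 1361. Neutrophil markers (6 genes, of which 0 passed the filter on low values) summed to 6.88 to 10.4, 5.12 to 57.8 and 16.3 to 26.4. Among the plasma cell markers Tnfrsf17 had no more than 1 read in any library. The noncoding RNA gene Gm26917 held 8.38% to 12.9% of reads in aged wild type and 4.999% to 5.70% elsewhere, and mitochondrial transcripts 3.17% to 5.26% and 1.19% to 2.39%. In such bulk libraries fewer cells of a type and less RNA per cell cannot be told apart, and the part of these shifts in the values below was not tested.

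Promoter sequence is shown for the members that carry a classical element of the unfolded protein response, to show what these members share in sequence. The ER stress response element (ERSE), to which ATF6 and XBP1 bind, was searched as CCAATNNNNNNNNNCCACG and the related ERSE-II as ATTGGNCCACG, both on either strand, in the 250 bases before and 50 bases after the transcription start as given by RefSeq for GRCm38.p6. Of the 43 members 35 matched this table by symbol. ERSE was present in 7 of them (20%), namely Hspa5, Hsp90b1, Calr, Canx, Dnajc3, Creld2 and Pdia6, against 0.137% of the 27025 genes in the table. ERSE-II was found in 2 members, Herpud1 and Dnajb11, against 0.0444% of genes; in Dnajb11 it lies after the start. The stretches below are written 5′ to 3′ on the strand of the gene, capitals mark the conserved letters of each element, and Hsp90b1 holds a pair of them.
Hspa5 (chr2:34772005-34772063, plus strand): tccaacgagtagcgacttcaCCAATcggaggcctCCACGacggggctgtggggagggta
Creld2 (chr15:88819500-88819558, plus strand): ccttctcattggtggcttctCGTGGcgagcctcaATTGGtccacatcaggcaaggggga
Hsp90b1 (chr10:86705513-86705676, minus strand): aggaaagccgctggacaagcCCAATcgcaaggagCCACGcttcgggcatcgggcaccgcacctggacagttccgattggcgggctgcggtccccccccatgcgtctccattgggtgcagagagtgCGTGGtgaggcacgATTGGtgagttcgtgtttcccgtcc
Dnajc3 (chr14:118937807-118937865, plus strand): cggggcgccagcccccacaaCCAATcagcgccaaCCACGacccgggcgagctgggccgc
Calr (chr8:84847055-84847113, minus strand): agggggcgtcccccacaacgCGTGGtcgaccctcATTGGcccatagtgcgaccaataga
Canx (chr11:50325780-50325838, minus strand): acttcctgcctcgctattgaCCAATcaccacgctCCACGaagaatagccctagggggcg
Pdia6 (chr12:17266471-17266529, plus strand): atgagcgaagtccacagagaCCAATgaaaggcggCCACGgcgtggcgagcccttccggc
Herpud1 (chr8:94386357-94386407, plus strand): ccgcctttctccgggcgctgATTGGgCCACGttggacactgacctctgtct
The core of another element, the UPRE (TGACGTGG), was found in 0 of the 35 members and in 0.714% of genes. A match of letters is a description of the sequence and does not show that a factor binds there.

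In aged against young wild type, most of the ER genes were lower. Of 43 members 25 fell, 1 rose (Atf6) and 17 did not pass the test, while over all tested genes 19.0% were called lower and 14.3% higher. The median log2 fold change of the members was -0.54, against -0.02 for all tested genes, and the members ran from -1.38 for Sdf2l1 to 0.67 for Atf6. All 3 aged wild-type libraries lay below all 4 young libraries for 31 members, as they did for 21.9% of all tested genes, and above them for 2 members, Atf6 and Creld2 (18.4% of all tested genes). In the authors' deposited table, made with DESeq2, 22 of the members were lower, 1 was higher and 20 were not called, against 11.2% lower and 10.6% higher of the 17359 genes with an adjusted p-value there.

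In the libraries labelled Trem1-/- against aged wild type, the same machinery was higher. Of 43 members 23 were called higher, 0 lower and 20 not at all. The shares over all tested genes were 11.5% higher and 6.82% lower. An unadjusted limma p under 0.05, in either direction, was reached by 33 members and by 3914 of 11506 tested genes. Among the 33 was Atf6, which was lower. The median log2 fold change was 0.58, against 0.02 for all tested genes, from -0.35 for Atf6 to 1.2002 for Sdf2l1. All 3 libraries labelled Trem1-/- lay above all aged wild-type libraries for 28 members (19.4% of all tested genes) and below them for 0 members (15.5%). The number called higher was 10 without replicate 2 of the libraries labelled Trem1-/- (6.75% of all tested genes then), 13 without aged wild-type replicate 3 (6.68%) and 11 without aged wild-type replicate 6 (7.39%). Without that Trem1-/- replicate 0 members were lower, against 2.88% of all tested genes. edgeR on whole reads recovered from the table called 21 members higher and 0 lower, against 9.86% and 8.26% of all tested genes. This comparison shares its aged wild-type libraries with the one above, so opposite signs are not independent of each other.

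**Figure D1:**
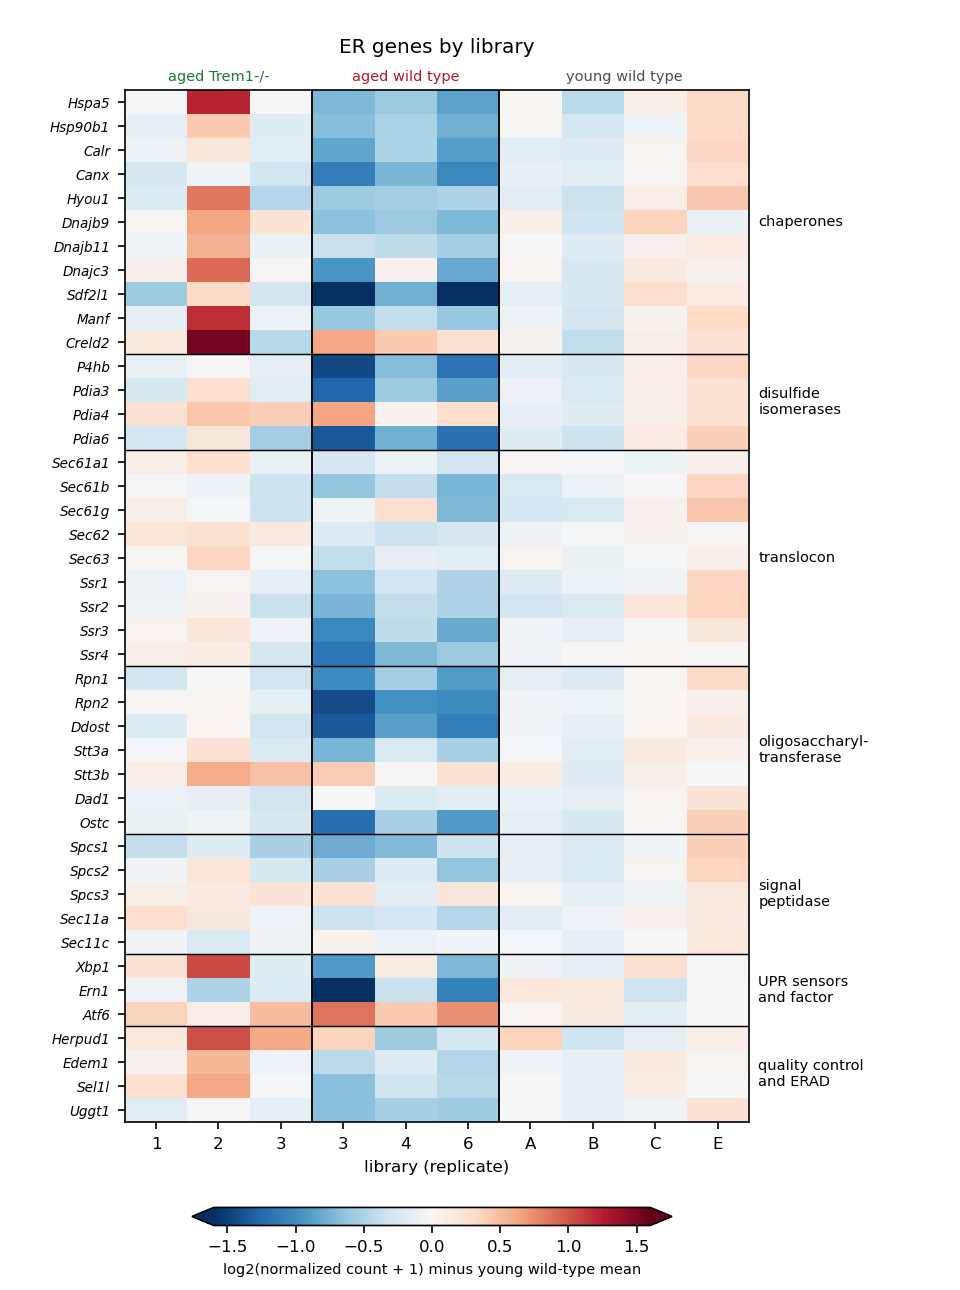
Level of each of the 43 ER genes (rows, grouped by role) in each of the 10 libraries (columns), as log2(normalized count + 1) minus the mean of the 4 young wild-type libraries; blue is lower and red higher, and the colour range ends at its arrows. The 3 aged wild-type columns are mostly blue, with medians over the members of -0.66, -0.39 and -0.59, and in the Trem1-/- columns, with medians of -0.03, 0.19 and -0.16, the deepest red lies in replicate 2, in chaperone rows and in Xbp1 and Herpud1.

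The scaling of the libraries bears on these counts. Rescaling to the sum outside Gm26917, mitochondrial and immunoglobulin genes moved the median log2 fold change of all tested genes to 0.17 in aged against young wild type. In the libraries labelled Trem1-/- against aged wild type that median became -0.19. In the first comparison it gave 17 members lower and 3 higher, against 12.3% and 23.4% of all tested genes. In the second it gave 13 members higher and 1 lower (Atf6), against 6.46% and 15.8%. The medians of the members were then -0.35 and 0.37.

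In the libraries labelled Trem1-/- against young wild type, no member was called. The count was 0 with limma, with edgeR and with DESeq2, against 0.921% of all tested genes called with limma, 0.591% higher and 0.330% lower. With edgeR 0.452% were called higher and 0.243% lower. DESeq2 called more, 253 of 11506 tested genes higher and 195 lower. The count of members was also 0 without Trem1-/- replicate 2 (0.365% of all tested genes higher and 0.139% lower) and after the rescaling (0.503% and 0.520%). The median log2 fold change was -0.01, and the values ran from -0.37 for Spcs1 to 0.60 for Herpud1. An unadjusted limma p under 0.05 was reached by 4 members, Pdia4, Stt3b, Atf6 and Herpud1. It was also reached by 1654 of 11506 tested genes, so the share of the members was not above that of all tested genes. The 95% intervals had half-widths of 0.20 to 0.78 on the log2 scale. For 41 of 43 members the whole interval lay within 1 log2 unit of 0, which is the precision this number of libraries gives. In each of the other comparisons this held for 22 members, the called member Uggt1 among them, so it does not show equal levels. Libraries labelled Trem1-/- lay wholly above young wild type for 2 members, Pdia4 and Sec62 (8.05% of all tested genes), and below for 0 (7.72%).

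The library medians over all 43 members, taken as log2 differences from the young mean, were -0.03, 0.19 and -0.16 in the libraries labelled Trem1-/-, -0.66, -0.39 and -0.59 in aged wild type and -0.06, -0.19, 0.05 and 0.18 in young wild type. Every aged wild-type library was below every other library, and the libraries labelled Trem1-/- overlapped with young wild type. The number of members below the young mean was 24, 10 and 35 in the libraries labelled Trem1-/-. It was 35, 36 and 38 in aged wild type and 29, 41, 11 and 5 in young wild type. Young replicate B exceeded every aged wild-type library in this number, so the number does not set aged wild type apart. Like the medians over the members, the macrophage marker sums were lowest in the aged wild-type libraries. The B cell and plasma cell marker sums were highest there.

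**Figure D2:**
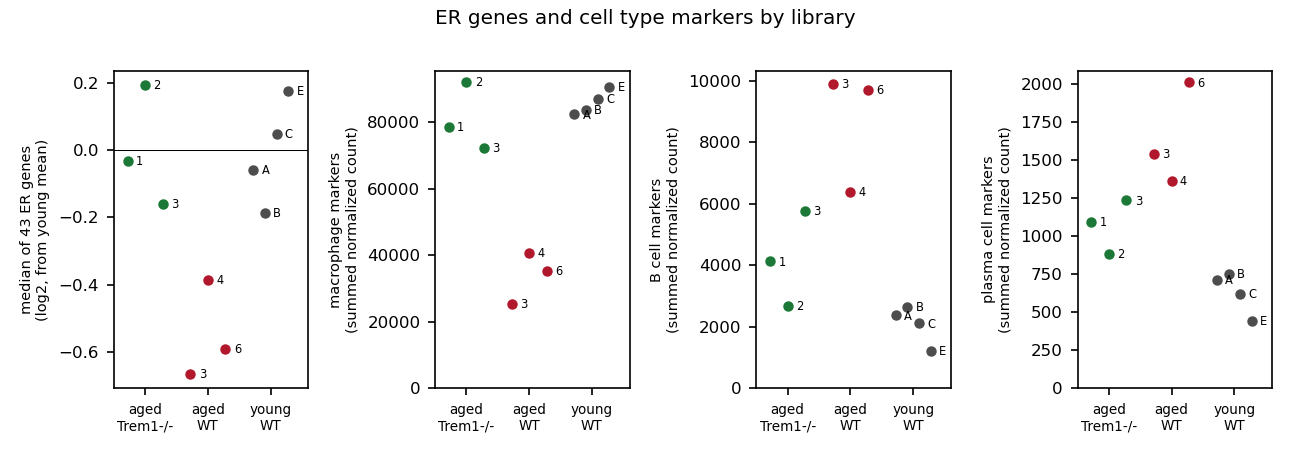
Each point is 1 library. From left to right, the panels show the median over the 43 ER genes (log2 difference from the young wild-type mean) and the summed normalized counts of resident macrophage, B cell and plasma cell markers. Aged wild type is lowest in the first pair of panels (at most -0.39 and 40766) and highest in the others (at least 6383 and 1361).

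Among chaperones and co-chaperones (11 members), 5 fell in aged against young wild type (45.5%) and 8 rose in the libraries labelled Trem1-/- against aged wild type (72.7%). Over all tested genes 19.0% were lower in the first of these comparisons and 11.5% higher in the second. Sdf2l1, a partner of the co-chaperone ERdj3 (ENSMUSG00000022769.9, chromosome 16, 17130138 to 17132383, minus strand, GRCm38), had 203, 377 and 245 normalized counts in the libraries labelled Trem1-/-, 88.3, 177 and 97.9 in aged wild type and 269, 252, 366 and 331 in young wild type. Each aged wild-type library was below all others. Its log2 fold change was -1.38 ± 0.26 SE in aged against young wild type (limma adjusted p = 0.0021) and 1.2002 ± 0.28 in the libraries labelled Trem1-/- against aged wild type (limma adjusted p = 0.014). Canx, the membrane lectin calnexin (ENSMUSG00000020368.15, chromosome 11, 50293961 to 50325673, minus strand), had 2557, 2976 and 2490.4 normalized counts in the libraries labelled Trem1-/-, 1427, 1857 and 1511 in aged wild type and 2804, 2745, 3164 and 3709.8 in young wild type. Aged wild type was again below both other groups without overlap, and the fold changes were -0.96 ± 0.13 (limma adjusted p = 0.0005) and 0.75 ± 0.14 (limma adjusted p = 0.00618).

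Hspa5, which encodes BiP, the main chaperone of the ER lumen (ENSMUSG00000026864.13, chromosome 2, 34771970 to 34777547, plus strand), had 2415, 5698 and 2427 normalized counts in the libraries labelled Trem1-/-, 1489, 1623 and 1345 in aged wild type and 2488, 1809.7, 2608 and 3028 in young wild type. Replicate 2 of the libraries labelled Trem1-/- stood far above every other library, and aged wild type was below all others. Hspa5 was called higher in the libraries labelled Trem1-/- (1.12 ± 0.29, limma adjusted p = 0.0223) but not lower in aged against young wild type (-0.72 ± 0.27, limma adjusted p = 0.0603). Without Trem1-/- replicate 2 the rise was 0.71 (limma adjusted p = 0.0394). The fall in aged wild type passed when replicate 2 of the libraries labelled Trem1-/- (limma adjusted p = 0.00536) or young replicate B (limma adjusted p = 0.0377) was left out of the shared model. In the authors' deposited table Hspa5 was lower in aged than in young wild type, with an adjusted p of 0.0417. Hsp90b1, the chaperone GRP94, had 2049, 2988 and 1956 normalized counts in the libraries labelled Trem1-/-, 1395, 1572 and 1316 in aged wild type and 2269, 1842, 2158 and 2806 in young wild type. Aged wild type was below all other libraries. It fell in aged wild type (-0.66 ± 0.17, limma adjusted p = 0.0115) and was higher in the libraries labelled Trem1-/- (0.68 ± 0.18, limma adjusted p = 0.0239); 15.7% of its exonic bases overlap other annotated genes.

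The soluble lectin calreticulin, Calr, averaged 3789 ± 525 normalized counts in the libraries labelled Trem1-/- (SD, n = 3). Aged wild type averaged 2315 ± 359 (SD, n = 3) and young wild type 3869 ± 681 (SD, n = 4). Calr passed in both comparisons (-0.74 and 0.71). Per kilobase of exon, merged over all annotated transcripts, it was the most abundant member in young wild type, at 1343 normalized counts. By this measure Sec11a was the least abundant at 31.3. The order depends on that length, since before division Sec61g was lower than Sec11a (103 and 144). Of the BiP co-chaperones, Dnajb9 (ERdj4) passed in both comparisons (-0.65 and 0.95). Dnajb11 (ERdj3, -0.44 and 0.56) and Dnajc3 (-0.56 and 0.89) passed in the second alone. Hyou1, a nucleotide exchange factor of BiP (-0.53 and 0.58), and Manf, a secreted survival factor that also binds BiP (-0.54 and 0.86), passed in neither, and neither did Creld2, a secreted ER stress protein (0.43 and -0.017). In the second comparison Canx and Dnajb9 kept their calls whichever library was left out. Hspa5 was no longer called without aged wild-type replicate 3 or 6 (limma adjusted p up to 0.0716), Calr without aged wild-type replicate 6 or Trem1-/- replicate 2 (up to 0.0561), and Hsp90b1 and Sdf2l1 without any of those 3 (up to 0.079 and 0.0542). Dnajb11 kept its call only without Trem1-/- replicate 1 or 3 or young replicate B or E, and Dnajc3 only without Trem1-/- replicate 3 or aged wild-type replicate 4 (up to 0.12 and 0.146 without the others). The change of Dnajb11 was 0.35 without Trem1-/- replicate 2.

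**Figure D3:**
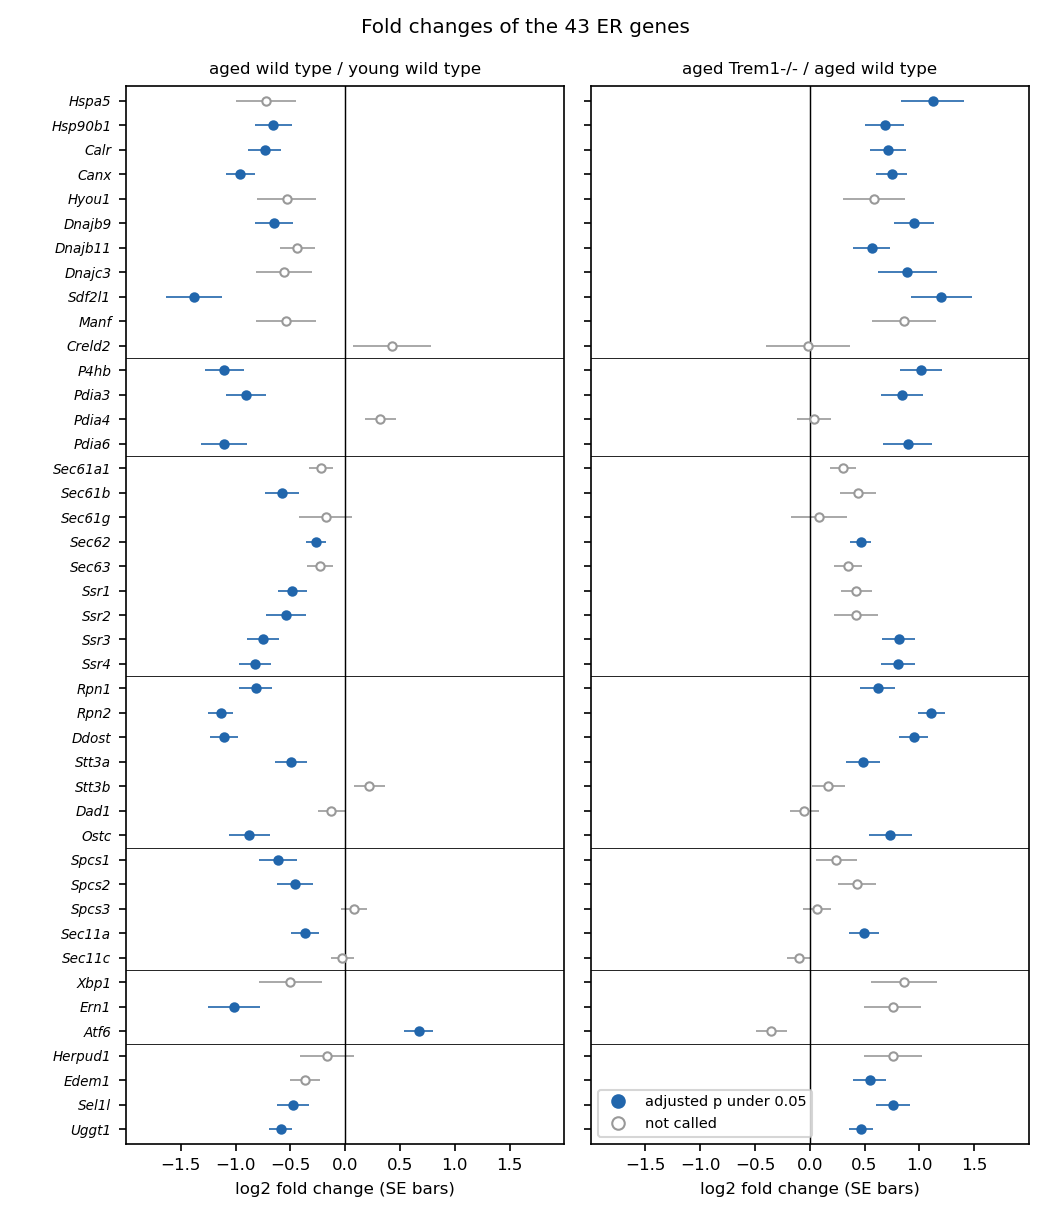
Log2 fold change (point) and its standard error (bar) of each of the 43 ER genes in aged against young wild type (left) and aged Trem1-/- against aged wild type (right); filled points have a limma adjusted p under 0.05. On the left 25 filled points lie below 0 and Atf6 above it, and on the right all 23 filled points lie above 0.

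Protein disulfide isomerases form and rearrange the disulfide bonds of secretory proteins. Of 4 measured here, 3 fell in aged wild type and were higher in the libraries labelled Trem1-/- (75% each). Over all tested genes 19.0% were lower in the first of these comparisons and 11.5% higher in the second. P4hb, the founding member of the family (ENSMUSG00000025130.11, chromosome 11, 120560298 to 120573253, minus strand), had 2572, 2790.4 and 2530.5 normalized counts in the libraries labelled Trem1-/-, 1030.3, 1735 and 1236 in aged wild type and 2461, 2352, 3025 and 3519 in young wild type. Its log2 fold changes were -1.104 ± 0.18 (limma adjusted p = 0.001) and 1.01 ± 0.19 (limma adjusted p = 0.00589). Pdia6, which also acts on BiP clients, had 786, 1082 and 649 normalized counts in the libraries labelled Trem1-/-, 371, 559 and 414 in aged wild type and 832, 759, 1047 and 1244 in young wild type. The log2 fold changes were -1.11 ± 0.21 (limma adjusted p = 0.00232) and 0.89 ± 0.23 (limma adjusted p = 0.0204). Pdia3, the isomerase that works with calnexin and calreticulin, had 2177, 3098 and 2285 normalized counts in the libraries labelled Trem1-/-, 1075, 1746 and 1419 in aged wild type and 2432, 2209, 2769 and 3072 in young wild type. Its changes were -0.91 ± 0.18 (limma adjusted p = 0.0029) and 0.84 ± 0.19 (limma adjusted p = 0.0135). For each of the 3 genes, all aged wild-type libraries lay below all others. Pdia4, another isomerase of the lumen, had 1338, 1541 and 1489 normalized counts in the libraries labelled Trem1-/-, 1759.9, 1177 and 1378 in aged wild type and 1036, 996, 1207 and 1331 in young wild type. Aged wild-type replicates ranged on both sides of the libraries labelled Trem1-/-, and neither comparison passed (0.32 and 0.035). In the second comparison P4hb kept its call whichever library was left out, whereas Pdia3 lost it without replicate 2 of the libraries labelled Trem1-/- (limma adjusted p = 0.0521) and Pdia6 without that replicate or aged wild-type replicate 3 or 6 (up to 0.0752).

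Of the translocon and its accessory proteins (9 members), 6 fell in aged against young wild type (66.7%, against 19.0% of all tested genes). In the libraries labelled Trem1-/- against aged wild type 3 rose (33.3%, against 11.5%). Sec61a1, the channel subunit, did not pass in either comparison (-0.22 and 0.31), nor did Sec61g (-0.18 and 0.086). Sec61b, another channel subunit, had 171, 163 and 138 normalized counts in the libraries labelled Trem1-/-, 113, 132 and 103 in aged wild type and 146, 162, 174 and 217 in young wild type. It fell in aged wild type (-0.58 ± 0.15, limma adjusted p = 0.0133) and did not pass in the second comparison (0.44 ± 0.16, limma adjusted p = 0.084). The fall did not pass without aged wild-type replicate 6 (limma adjusted p = 0.06002). Stretches of 50 bases shared with other genes make up 17.4% of Sec61b and 14.8% of Sec61g, so their counts are uncertain.

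The TRAP complex, which helps some signal sequences open the channel, had all 4 subunits lower in aged wild type. Ssr4, the delta subunit (ENSMUSG00000002014.12, chromosome X, 73787028 to 73790830, plus strand), had 385, 389 and 295 normalized counts in the libraries labelled Trem1-/-, 159.99, 216 and 237 in aged wild type and 343, 357, 369 and 363 in young wild type. Ssr3, the gamma subunit, had 710.1, 789.9 and 666 normalized counts in the libraries labelled Trem1-/-, 337, 521 and 394 in aged wild type and 671, 626, 694 and 781 in young wild type. In both genes aged wild type lay below the other groups without overlap. The fold changes of Ssr4 were -0.82 ± 0.14 (limma adjusted p = 0.00148) and 0.81 ± 0.15 (limma adjusted p = 0.00617), and those of Ssr3 were -0.75 ± 0.14 (limma adjusted p = 0.00224) and 0.81 ± 0.15 (limma adjusted p = 0.00567); all 4 calls held whichever library was left out. Ssr1 (-0.48 and 0.42) and Ssr2 (-0.54 and 0.42) fell in the first comparison and did not pass in the second. Sec62, a part of the post-translational import route, passed in both with small changes (-0.27 and 0.46), and its partner Sec63, which recruits BiP to the channel, passed in neither (-0.23 and 0.35). Falls were lost by Ssr1 without aged wild-type replicate 3 (limma adjusted p = 0.0666), by Ssr2 without that library, aged wild-type replicate 6, young replicate C or E or Trem1-/- replicate 1 (up to 0.147), and by Sec62 without aged wild-type replicate 4 or 6, young replicate B, C or E or Trem1-/- replicate 1 (up to 0.0936).

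Oligosaccharyltransferase, which transfers the preassembled glycan to asparagines, had 5 of 7 members that fell in aged wild type (71.4%, against 19.0% of all tested genes). The same 5, Rpn1, Rpn2, Ddost, Stt3a and Ostc, were higher in the libraries labelled Trem1-/- (against 11.5%). Rpn2, the ribophorin II subunit (ENSMUSG00000027642.15, chromosome 2, 157279017 to 157326319, plus strand), had 1608, 1648 and 1443 normalized counts in the libraries labelled Trem1-/-, 598, 813 and 783 in aged wild type and 1540.000, 1516, 1633 and 1692 in young wild type. Its fold changes, -1.14 ± 0.12 (limma adjusted p = 0.000126) and 1.11 ± 0.12 (limma adjusted p = 0.00121), had the smallest adjusted p-values of all 43 members in both comparisons. Ddost, a noncatalytic subunit (ENSMUSG00000028757.4, chromosome 4, 138304730 to 138312628, plus strand), had 778, 923 and 739.9 normalized counts in the libraries labelled Trem1-/-, 357, 494 and 419 in aged wild type and 877, 829, 925 and 998 in young wild type. Fold changes were -1.11 ± 0.13 (limma adjusted p = 0.00022) and 0.95 ± 0.14 (limma adjusted p = 0.00203). In both genes the highest aged wild-type library was far below the lowest library of the other groups. Ostc, a subunit that links the enzyme to the translocon, had 172, 176 and 154 normalized counts in the libraries labelled Trem1-/-, 79.4, 129 and 97.9 in aged wild type and 165, 155, 189 and 239 in young wild type. The log2 fold changes were -0.87 ± 0.18 (limma adjusted p = 0.00388) and 0.73 ± 0.20 (limma adjusted p = 0.0252). Rpn1, ribophorin I, followed with -0.82 and 0.62.

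The catalytic subunits of oligosaccharyltransferase differed in their values. Stt3a, which glycosylates chains as they enter through the translocon, had 415, 499 and 360.2 normalized counts in the libraries labelled Trem1-/-, 255, 359 and 296 in aged wild type and 415, 374, 468 and 445 in young wild type. Stt3a passed in both comparisons (-0.50 ± 0.14, limma adjusted p = 0.0214, and 0.49 ± 0.15, limma adjusted p = 0.0493). Stt3b, which glycosylates sites that were skipped, had 779.6, 1102 and 1004 normalized counts in the libraries labelled Trem1-/-, 961, 738 and 857 in aged wild type and 789.6, 627, 773 and 728 in young wild type. Stt3b passed in neither (0.22 ± 0.14, limma adjusted p = 0.246, and 0.17 ± 0.15, limma adjusted p = 0.459). Dad1, a small subunit of both forms of the enzyme, had fold changes of -0.13 and -0.049 and passed in neither. The difference between the fold changes of Stt3a and Stt3b was not tested. Stt3a lost its fall without aged wild-type replicate 3 or 6 or young replicate C or E (limma adjusted p up to 0.0927), and its rise without any library but Trem1-/- replicate 3 or aged wild-type replicate 4 (up to 0.167). In the second comparison Ostc was no longer called without aged wild-type replicate 3 or 6 or Trem1-/- replicate 1 or 2 (limma adjusted p up to 0.0904) and Rpn1 without 3 of these, all but Trem1-/- replicate 1 (up to 0.0873).

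**Figure D4:**
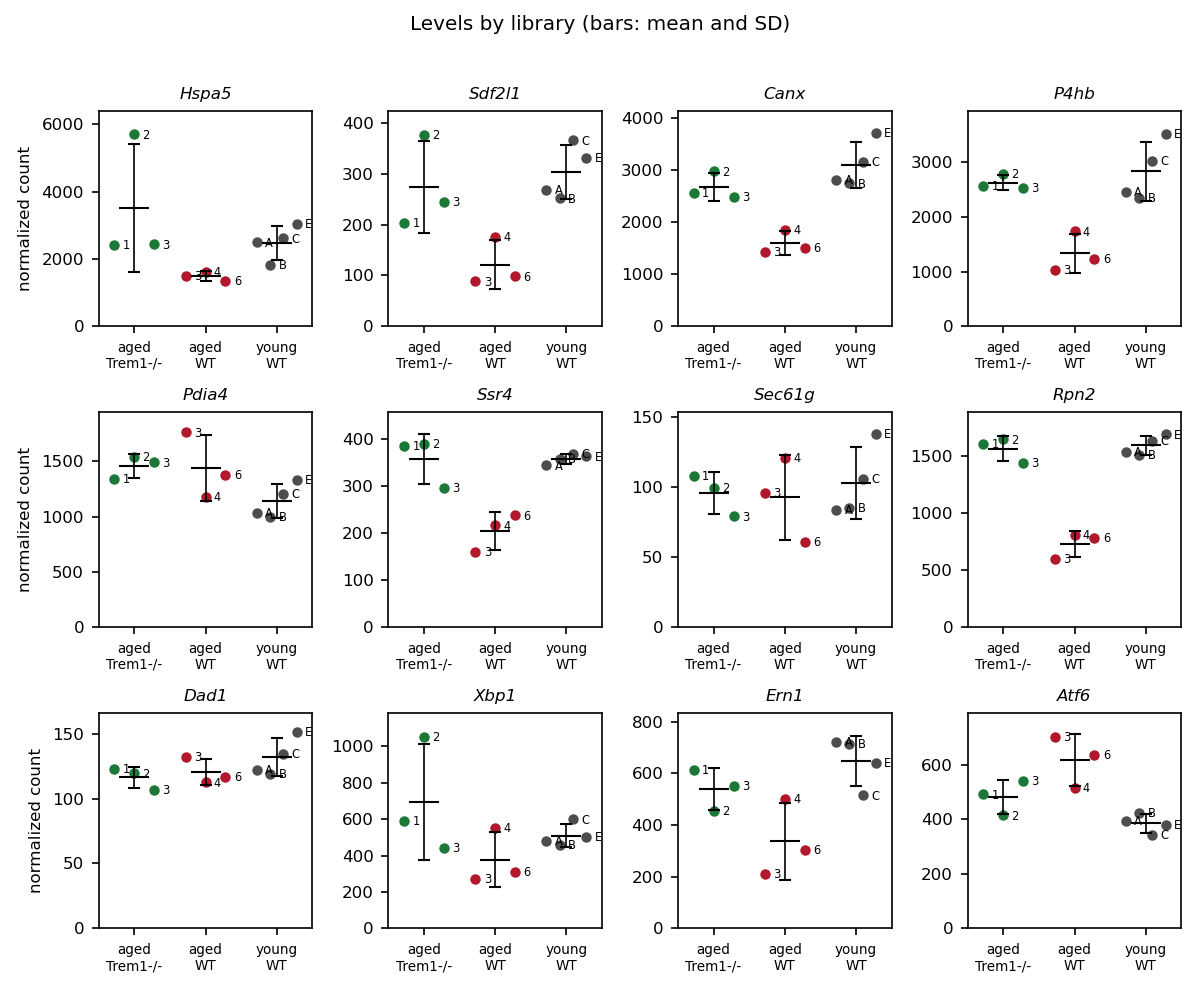
Normalized counts of 12 ER genes in each library (points, labelled by replicate) with the mean and SD of each group (bars); the vertical axes start at 0. In Rpn2, Canx, P4hb, Sdf2l1 and Ssr4 every aged wild-type point is below every other point, in Sec61g and Dad1 all 3 groups overlap, in Pdia4 aged wild type overlaps with both other groups, and in Hspa5 and Xbp1 replicate 2 stands above the other Trem1-/- points (5698 and 1052).

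Signal peptidase (5 members) had 3 that fell in aged wild type (60%, against 19.0% of all tested genes). In the libraries labelled Trem1-/- 1 was higher (20%, against 11.5%), which with 5 members is near the share of all tested genes. Sec11a, a catalytic subunit (ENSMUSG00000025724.12, chromosome 7, 80904889 to 80947780, minus strand), had 174, 163 and 138 normalized counts in the libraries labelled Trem1-/-, 113, 119 and 103 in aged wild type and 128, 139, 151 and 159 in young wild type. Aged wild type was below all other libraries, with -0.36 ± 0.13 (limma adjusted p = 0.0435) and 0.49 ± 0.13 (limma adjusted p = 0.0273). Spcs1, an accessory subunit, had 82.8, 92.9 and 74.6 normalized counts in the libraries labelled Trem1-/-, 61.4, 65.5 and 85.3 in aged wild type and 98.5, 92.4, 104 and 141 in young wild type. It fell in aged wild type (-0.61 ± 0.18, limma adjusted p = 0.0199), while the libraries labelled Trem1-/- overlapped with aged wild type and did not pass (0.24 ± 0.19, limma adjusted p = 0.389). Spcs2, another accessory subunit, had 238, 281 and 205 normalized counts in the libraries labelled Trem1-/-, 170.2, 209.5 and 157 in aged wild type and 223, 206, 252 and 310.3 in young wild type. Its changes were -0.46 ± 0.16 (limma adjusted p = 0.0489) and 0.43 ± 0.18 (limma adjusted p = 0.11). Spcs3 and the alternative catalytic subunit Sec11c passed in neither comparison. The calls in this complex were near the threshold. Falls were lost by Spcs1 without aged wild-type replicate 3 (limma adjusted p = 0.0785), by Spcs2 without aged wild-type replicate 3 or 6, young replicate A, C or E or Trem1-/- replicate 1 (up to 0.169), and by Sec11a without aged wild-type replicate 3 or 6, young replicate B, C or E or Trem1-/- replicate 2 (up to 0.143). Sec11a lost its rise without aged wild-type replicate 3 or 6 or Trem1-/- replicate 1 or 2 (up to 0.094), and 16.3% of the exonic bases of Spcs1 overlap Glt8d1.

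The sensors of the unfolded protein response did not move together. Ern1, which encodes the sensor IRE1 that splices Xbp1 mRNA (ENSMUSG00000020715.9, chromosome 11, 106394650 to 106487852, minus strand), had 614, 454 and 549 normalized counts in the libraries labelled Trem1-/-, 209.9, 501 and 302 in aged wild type and 719.9, 712, 514 and 640.4 in young wild type. It fell in aged wild type (-1.02 ± 0.24, limma adjusted p = 0.00767), each of whose libraries was below every young one. Against aged wild type the libraries labelled Trem1-/- overlapped with replicate 4 and did not pass (0.76 ± 0.26, limma adjusted p = 0.0625); without that replicate the change was 1.09 (limma adjusted p = 0.00236), and without aged wild-type replicate 3 it was 0.46 (limma adjusted p = 0.204). Atf6, the sensor that is itself a transcription factor after cleavage in the Golgi (ENSMUSG00000026663.6, chromosome 1, 170704674 to 170867771, minus strand), had 490.4, 413 and 539 normalized counts in the libraries labelled Trem1-/-, 700.1, 514 and 634 in aged wild type and 394, 422, 341 and 380.04 in young wild type. It was the one member called higher in aged than in young wild type (0.67 ± 0.13, limma adjusted p = 0.00274), and the authors' deposited table gave it a log2 fold change of 0.68. In the libraries labelled Trem1-/- it overlapped with both other groups, and the difference from aged wild type did not pass (-0.35 ± 0.14, limma adjusted p = 0.103) except without aged wild-type replicate 4 (-0.48, limma adjusted p = 0.0255) and after the rescaling (-0.57, limma adjusted p = 0.0272). Without Trem1-/- replicate 2 or aged wild-type replicate 3 it was -0.25 or -0.26. Xbp1, the transcription factor downstream of IRE1, had 591, 1052 and 442 normalized counts in the libraries labelled Trem1-/-, 270.1, 549.98 and 308 in aged wild type and 479, 457, 598 and 501 in young wild type. Xbp1 passed in neither comparison (-0.50 ± 0.28, limma adjusted p = 0.199, and 0.86 ± 0.30, limma adjusted p = 0.0696). Aged wild-type replicate 4 was within the range of young wild type for Xbp1, and without it both comparisons passed (-0.81, limma adjusted p = 0.0313, and 1.17, limma adjusted p = 0.0108). The second also passed without Trem1-/- replicate 3 (1.14, limma adjusted p = 0.0309), while without Trem1-/- replicate 2 its change was 0.51 (limma adjusted p = 0.229). The first had a change of -0.30 without aged wild-type replicate 3 (limma adjusted p = 0.526). Counts per gene do not tell spliced from unspliced Xbp1 mRNA.

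Of 4 genes of glycoprotein quality control and ER-associated degradation, 2 fell in aged wild type (50%) and 3 were higher in the libraries labelled Trem1-/- (75%). Over all tested genes 19.0% were lower in the first of these comparisons and 11.5% higher in the second. Uggt1, which tags misfolded glycoproteins for another round with calnexin (ENSMUSG00000037470.14, chromosome 1, 36140027 to 36244720, minus strand), had 1097, 1211 and 1102 normalized counts in the libraries labelled Trem1-/-, 777, 850.1 and 833 in aged wild type and 1204, 1121, 1182 and 1445 in young wild type. Its fold changes were -0.59 ± 0.10 (limma adjusted p = 0.00145) and 0.47 ± 0.11 (limma adjusted p = 0.0146), and aged wild type lay below both other groups. Sel1l, the scaffold of the HRD1 ubiquitin ligase (ENSMUSG00000020964.14, chromosome 12, 91806043 to 91849157, minus strand), had 796, 1032 and 661 normalized counts in the libraries labelled Trem1-/-, 419.8, 536 and 492 in aged wild type and 679.8, 610.2, 727 and 665 in young wild type. Fold changes were -0.48 ± 0.15 (limma adjusted p = 0.0256) and 0.76 ± 0.16 (limma adjusted p = 0.00817). Edem1, which trims mannose from glycoproteins bound for degradation, had 653, 904 and 605 normalized counts in the libraries labelled Trem1-/-, 468, 541 and 452 in aged wild type and 605, 570.2, 692 and 646 in young wild type. It passed in the second comparison (0.55 ± 0.15, limma adjusted p = 0.0272) and not in the first (-0.37 ± 0.14, limma adjusted p = 0.0625). Herpud1, an ER membrane protein of the same ligase complex, passed in neither (-0.16 and 0.76). Sel1l lost its fall without aged wild-type replicate 3 or 6 or young replicate A, C or E (limma adjusted p up to 0.104), and in the second comparison Uggt1 lost its call without replicate 2 of the libraries labelled Trem1-/- (0.0552) and Edem1 without that replicate or aged wild-type replicate 3 or 6 (up to 0.0894).

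Replicate 2 of the libraries labelled Trem1-/- had the highest level of all 10 libraries for 21 of 43 members (48.8%), against 12.3% of all tested genes. Its level was more than 1.5 times the mean of replicates 1 and 3 for 10 members (23.3%), against 7.79% of all tested genes, with a median ratio of 1.22 over the members and 1 over all genes. The members above 1.5 were named after their values were seen. They were Creld2 (ratio 3.16), Manf (2.45), Hspa5 (2.35), Hyou1 (2.26), Xbp1 (2.04), Dnajc3 (1.81), Sdf2l1 (1.68), Dnajb11 (1.58), Herpud1 (1.55) and Pdia6 (1.51). By role these were 7 of 11 chaperones, 1 of 4 isomerases, 1 of 3 sensors and factors and 1 of 4 quality control genes. They included 0 of 9 translocon, 0 of 7 oligosaccharyltransferase and 0 of 5 signal peptidase genes. In sets so small, 0 is near the 7.79% of all tested genes and does not set these roles apart. Replicate 2 was the highest of all 10 libraries for 9 of 11 chaperones and 5 of 9 translocon genes. This held for 2 of 7 oligosaccharyltransferase and 0 of 5 signal peptidase genes.

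Creld2 had 148, 389 and 97.5 normalized counts in the libraries labelled Trem1-/-, 206, 179 and 158 in aged wild type and 139, 102, 142 and 158 in young wild type. Replicate 2 of the libraries labelled Trem1-/- stood far above every other library. Manf had 164, 410.2 and 169.8 normalized counts in the libraries labelled Trem1-/-, 118, 136 and 119 in aged wild type and 169.9, 147, 187 and 225 in young wild type. Hyou1 had 545, 1136 and 459 normalized counts in the libraries labelled Trem1-/-, 429, 434 and 451 in aged wild type and 558, 499, 681 and 853 in young wild type. In these genes replicates 1 and 3 of the libraries labelled Trem1-/- were within or near the range of the wild-type groups. Ern1 and Atf6 were lower in replicate 2 than in the mean of replicates 1 and 3, with ratios of 0.781 and 0.803. The same library also had the highest Trem1 level of the 10 (106 normalized counts) and, within its group, the highest sums of mast cell markers (1942 normalized counts over 7 genes, against 413 and 428 in replicates 1 and 3) and of mesothelial and fibroblast markers (522 over 11 genes, against 22.5 and 125). Their part in the result was not tested. Without this library the median log2 fold change of the members between the libraries labelled Trem1-/- and aged wild type was 0.44.

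**Figure D5:**
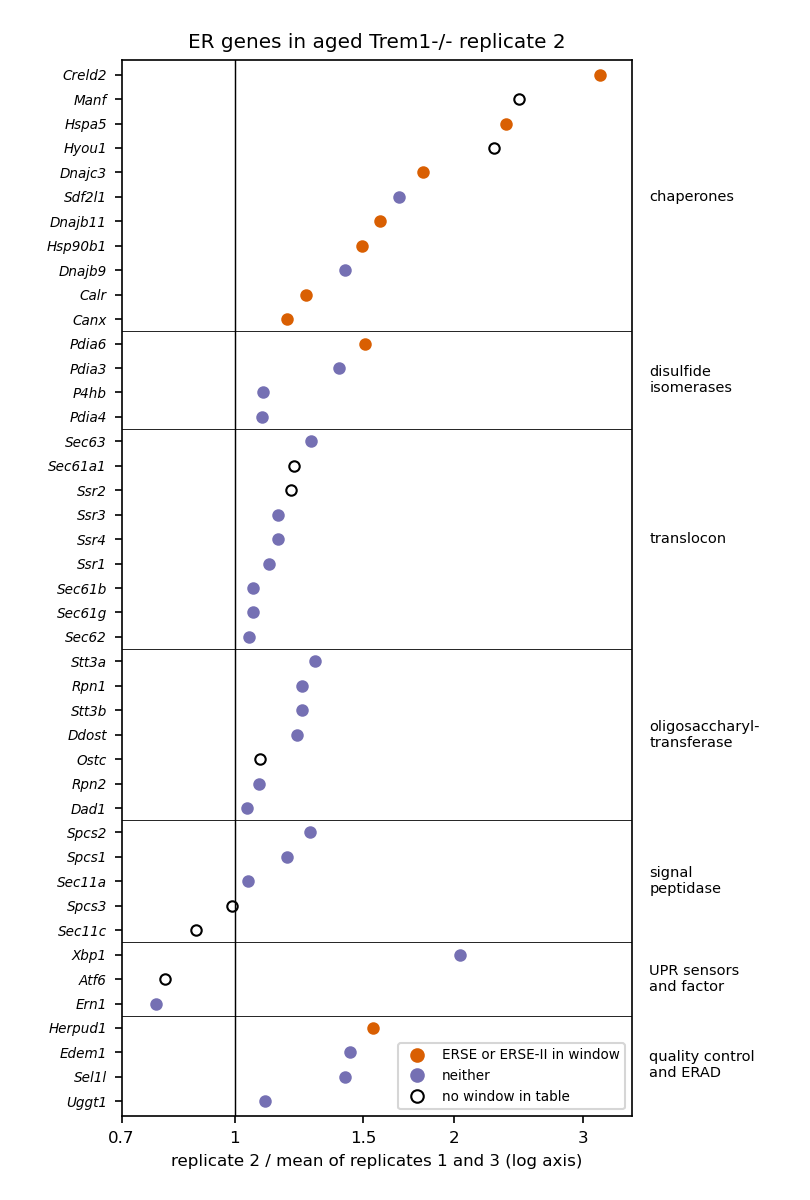
Ratio of the normalized count in aged Trem1-/- replicate 2 to the mean of replicates 1 and 3 for each of the 43 ER genes, grouped by role, on a log axis; orange marks members with ERSE or ERSE-II in the promoter window, purple members with neither, and open circles members without a window in the table. Chaperones reach 3.16 (Creld2), and genes of the translocon, oligosaccharyltransferase and signal peptidase stay below 1.5, a ratio exceeded by 7.79% of all tested genes.

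Other genes of the same pathways were taken from lists of 105 genes, of which 100 passed the filter on low values. Of these 100, 28 fell and 4 rose in aged against young wild type, 26 were higher and 1 was lower in the libraries labelled Trem1-/- against aged wild type, and 0 were called in the libraries labelled Trem1-/- against young wild type. Over all tested genes 19.0% were lower and 14.3% higher in the first comparison, and 11.5% higher and 6.82% lower in the second. In the third 0.921% of all tested genes were called, so 0 of 100 genes is near that share. The median log2 fold changes of the 100 genes were -0.23 and 0.24 in the first pair of comparisons. Among 15 other folding enzymes, 8 fell and 1 rose in the first comparison and 8 were higher and 1 lower in the second. Pdia5, an isomerase, had 79.7, 60.9 and 51.6 normalized counts in the libraries labelled Trem1-/-, 24.3, 17.5 and 32.3 in aged wild type and 72.3, 56.0, 84.1 and 107 in young wild type. The log2 fold changes were -1.66 ± 0.26 (limma adjusted p = 0.000836) and 1.36 ± 0.28 (limma adjusted p = 0.00821). Ero1lb, the beta form of the oxidase that recharges the isomerases, had 253, 264 and 337 normalized counts in the libraries labelled Trem1-/-, 714, 376 and 617 in aged wild type and 186, 180.4, 141 and 112 in young wild type. It went the other way (1.85 ± 0.23, limma adjusted p = 0.000308, and -0.96 ± 0.25, limma adjusted p = 0.0218). Ero1l, the alpha form, had fold changes of -0.28 and 0.25 and passed in neither. Dnajc10, a reductase that prepares proteins for degradation, was 635 ± 37.5 normalized counts in the libraries labelled Trem1-/- and 389.9 ± 29.7 in aged wild type (SD, n = 3 each; 0.70 ± 0.13, limma adjusted p = 0.00504).

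A list of 10 genes holds the signal recognition particle and its receptor, which bring ribosomes to the ER, and Tram1, a membrane protein beside the translocon. Of these, 2 fell in aged wild type (20%, near the share of all tested genes), namely Srp72 and Tram1, by 0.30 and 0.44 on the log2 scale, and 3 were higher in the libraries labelled Trem1-/- (30%). Of 26 other N-glycosylation enzymes 5 fell in the first comparison (19.2%) and 3 rose in the second (11.5%), both near the shares of all tested genes. Among those called were Magt1, the oxidoreductase subunit of the STT3B form of oligosaccharyltransferase (-1.08 ± 0.17 and 0.91 ± 0.18), and Ganab, glucosidase II (-0.43 ± 0.10 and 0.42 ± 0.11). Of 19 other degradation genes 5 fell (26.3%) and 1 rose (5.26%) in the first comparison, against 19.0% and 14.3% of all tested genes. In the second 5 were higher (26.3%, against 11.5%). Os9, a lectin of the HRD1 complex, changed by -0.77 ± 0.11 and 0.71 ± 0.12, and Derl1, a channel component, by -0.59 ± 0.10 and 0.66 ± 0.11. In export by COPII vesicles 7 of 20 genes fell in the first comparison (35%) and 6 were higher in the second (30%). Those called included the cargo receptors Tmed10 (-0.75 ± 0.13), Tmed2 (-0.60 ± 0.12) and Surf4 (0.64 ± 0.13). Mcfd2, a cofactor in the export of coagulation factors, was also called (0.997 ± 0.16).

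Of the remaining unfolded protein response genes 10 were tested. In aged against young wild type 1 fell (10%) and 2 rose (20%), against 19.0% and 14.3% of all tested genes. In the libraries labelled Trem1-/- against aged wild type 1 was higher (10%, against 11.5%). With 10 genes these counts do not set the list apart from all tested genes. Wfs1, an ER calcium regulator that is a target of the response, had 107, 127 and 101 normalized counts in the libraries labelled Trem1-/-, 37.1, 54.6 and 44.9 in aged wild type and 89.8, 78.2, 86.5 and 72.1 in young wild type. It fell in aged wild type (-0.84 ± 0.16, limma adjusted p = 0.0024) and was higher in the libraries labelled Trem1-/- (1.29 ± 0.17, limma adjusted p = 0.00174). Eif2ak3, which encodes the sensor PERK, rose by 0.51 ± 0.17 on the log2 scale in aged wild type (limma adjusted p = 0.0413), and Atf4, the transcription factor downstream of PERK, by 0.52 ± 0.17 (limma adjusted p = 0.0391). In the libraries labelled Trem1-/- against aged wild type these genes had values of 0.012 and -0.37 and did not pass. Ddit3, which encodes the stress factor CHOP, had 48.1 ± 16.0, 35.6 ± 6.72 and 39.3 ± 15.8 normalized counts in the libraries labelled Trem1-/-, aged wild type and young wild type (SD) and passed in neither comparison.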

How the data were processed

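Total RNA of 10 libraries was extracted with a column kit, reverse transcribed with a Takara kit and prepared with a NEBNext kit, per the labels' protocols. The submitters' processing notes name fastp, STAR, featureCounts 1.5.0-p3, DESeq2 1.20.0 and the build GRCm38; the annotation release and the strand setting were not given, so genes that overlap others are uncertain. The authors deposited normalized counts per gene and library (a signal unit) and, for aged against young wild type, also a log2 fold change, its Wald statistic (a score), and a p-value before and after adjustment. In every library 100% of the deposited normalized counts were whole multiples of 1 number within a tolerance of 1e-06, so whole reads were recovered. A floor of 3 reads was 1.85 to 3.84 normalized counts; it covers counting error only, since no molecular identifiers tell molecules from copies. No column of per-sample values was left unused.

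Because the deposited values are normalized and not raw counts, the main test was limma-trend in R 4.3.3 with limma 3.58.1. The fit used log2(normalized count + 1), which understates changes of low genes, over genes with a mean of at least 10 and all 3 groups in 1 model, checked on simulated data. edgeR 4.0.16 on the recovered reads called 1821 genes higher and 1932 lower in aged against young wild type, 1134 and 950 in aged Trem1-/- against aged wild type, and 52 and 28 in aged Trem1-/- against young wild type; DESeq2 1.42.0 was another alternative. Trem1 was compared by exact permutation tests. Other alternatives were the pseudocount (0.5 and 5), the filter (none and 50), TMM scaling, rescaling outside Gm26917, mitochondrial and immunoglobulin genes, fits of 2 groups only and leaving out each library. Gene symbols were matched to GENCODE M21 (53825 of 54532, 98.7%) for coordinates, overlaps and shared stretches of 50 bases. Promoters are RefSeq's for GRCm38.p6. No read was seen for 17593 genes.

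The members and gene lists were chosen with earlier results of these data known. Values per library are given for up to 3 called members of each of 7 roles with the largest log2 fold change in aged against young wild type or aged Trem1-/- against aged wild type, and for Hspa5, Hsp90b1, Xbp1, Ern1 and Atf6. Of other pathway genes, up to 2 called genes with the smallest p per list and comparison are named. Pdia4, Stt3a, Stt3b, Creld2, Manf, Hyou1, Ero1l, Eif2ak3 and Ddit3 were added after their values were seen.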

Additional observations from a re-analysis of the deposited data

How the results depend on the processing

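No paired analysis was possible because the aged groups share the replicate number 3 only and the young libraries carry letters. Of the 26 members called in aged against young wild type, 17 kept their call whichever library was left out and 18 under all other alternatives; of the 23 called in aged Trem1-/- against aged wild type it was 9 and 12. Leaving out 1 library gave 18 to 29 members lower and 1 to 2 higher in the first comparison. In the second it gave 10 to 27 higher and 0 to 1 lower, the lower one being Atf6 without aged wild-type replicate 4. Over all tested genes these fits called 1591 to 2417 lower and 1149 to 1744 higher in the first comparison. In the second they called 762 to 1785 higher and 315 to 1015 lower. With 1 library fewer the ratio of Trem1 was 0.526 to 2.26. Rescaling outside Gm26917, mitochondrial and immunoglobulin genes moved the median of all tested genes to 0.17 and -0.19 and that of the members to -0.35 and 0.37. It gave 17 members lower and 3 higher (Atf6, Pdia4 and Stt3b) in the first comparison, and 13 higher and 1 lower (Atf6) in the second. Over all genes it called 2701 higher and 1423 lower against 1647 and 2190 with the main scaling, and 745 and 1820 against 1327 and 785. With 2 groups only, 17 members were higher in the second comparison, with 724 and 450 of all genes. In aged Trem1-/- against young wild type 68 genes were called higher and 38 lower. The counts were 161 and 102 with no filter, 28 and 8 with a mean of at least 50, 253 and 195 with DESeq2, 151 and 147 with 2 groups only, 58 and 60 after rescaling, and 0 to 159 and 0 to 109 without 1 library, with 0 members in each.

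Signs that turned all belonged to members without a call. In aged against young wild type these were, after rescaling, Sec61g (0.012), Dad1 (0.063), Sec11c (0.16) and Herpud1 (0.025); Sec11c also with TMM (0.0016), edgeR (0.00043) and DESeq2 (0.0097). In aged Trem1-/- against aged wild type they were, after rescaling, Pdia4 (-0.18), Sec61g (-0.13), Stt3b (-0.046) and Spcs3 (-0.15); Pdia4 also with edgeR (-0.014) and DESeq2 (-0.017), and Creld2 with these (0.21 and 0.20). Leaving out 1 library gave -0.39 to 0.094 for Sec61g, -0.069 to 0.031 for Sec11c and -0.42 to 0.039 for Herpud1 in the first comparison. In the second it gave -0.58 to 0.41 for Creld2, -0.0996 to 0.19 for Pdia4, -0.18 to 0.30 for Sec61g, -0.096 to 0.018 for Dad1 and -0.059 to 0.14 for Spcs3. Causes were not tested.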
